A study of Danio rerio with 9 samples.

Results

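The 3 wild-type libraries of a zebrafish RNA sequencing series were described on their own, as a baseline of gene expression in the whole larva at 8 days post fertilization. They were chosen by their label and are 3 of 9 libraries. Each was made from total RNA of 7 pooled larvae of the wild-type group, depleted of ribosomal RNA and sequenced with paired reads of 150 bases. The table columns named AB were taken as the wild-type libraries of the same number. The other 6 libraries, 3 from fam177a1a stl700 homozygotes and 3 from stl700;stl746 double homozygotes, were not compared with them here. The labels do not say whether the pools came from separate clutches, so the spread among the libraries may be partly technical.

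At this age a zebrafish larva swims, hunts and feeds. The yolk has been used up or nearly so, the liver, pancreas and intestine are at work, the retina is layered and image-forming, and the larval red cells still carry embryonic and larval haemoglobins. The skeleton is mostly cartilage with the first bones, and lymphocytes and germ cells are few. The teleost ancestor duplicated its genome, and many zebrafish genes therefore stand in pairs whose names end in a and b. In whole-body RNA, fewer cells of a type and less RNA per cell cannot be told apart.

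The table held whole-number counts for 28802 rows, mostly named genes. The libraries held 24717581, 18297048 and 21085943 counts for replicates 1, 2 and 3. Levels are given as counts-per-million values (CPM) of the library total after trimmed-mean (TMM) scaling, with factors between 0.987 and 1.01. Levels of different genes are set side by side as CPM per kilobase, from the gene length deposited with the counts. Every ± is the SD over the 3 libraries. The gene fam177a1, the single row of that name, stood at 27.4, 26.7 and 22.9 CPM in the wild-type libraries.

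Of the 28802 rows, 23918 had a count in all 3 libraries and 2259 had none in any. A row with no count in the 3 libraries together lay below 0.0468 CPM, the level of 3 counts over their summed depth. A mean of at least 1 CPM was reached by 19944 rows, at least 10 CPM by 11725 rows, at least 100 CPM by 1400 rows and at least 1000 CPM by 105 rows. The 491 most abundant rows held 50% of the counts, and the 10 most abundant held 12.3%. The log2 levels of the 20737 rows that passed the filter on low counts correlated between libraries with Pearson's r of 0.991 to 0.992, across genes, which are not independent replicates. The median gene of that set had a coefficient of variation (CV, the SD over the mean) of 9.14%, counting error included, and the 1400 rows at 100 CPM or more had a median of 5.54%. The common biological coefficient of variation, the spread left after counting error in edgeR's fit with no group term, was 9.08%.

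**Figure D1:**
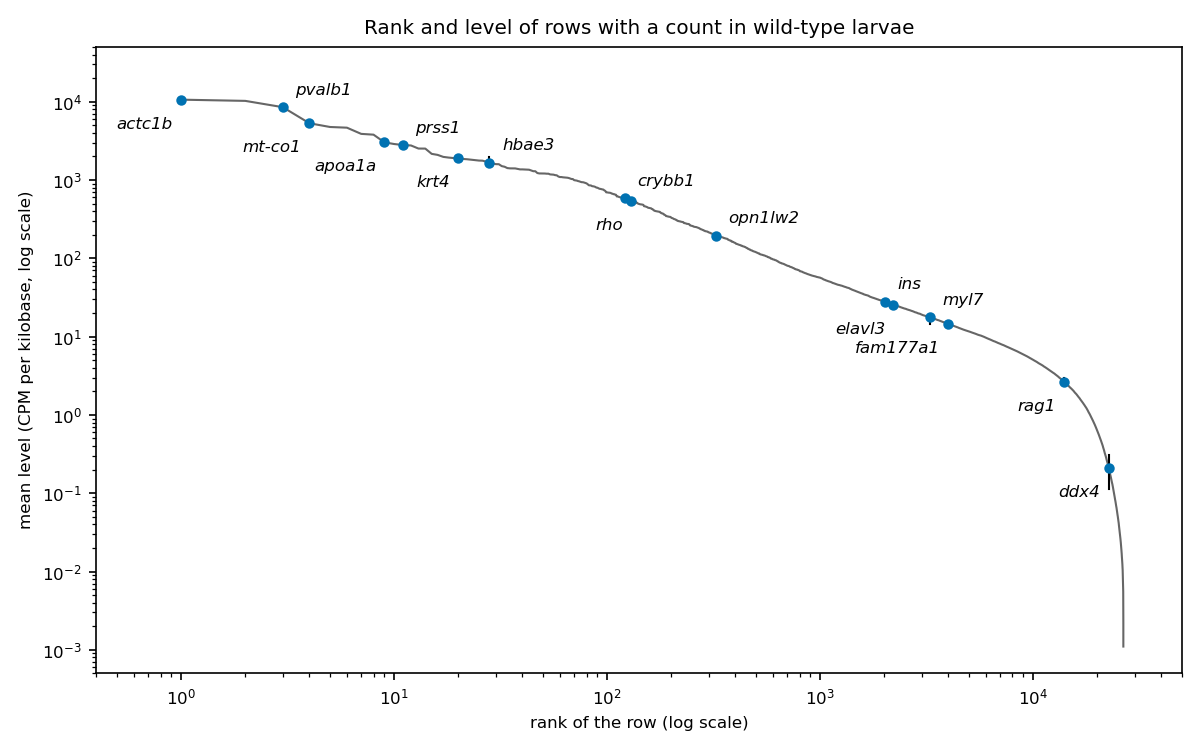
Mean level of each row (CPM per kilobase, log scale) against its rank (log scale) in the 3 wild-type libraries, for rows with a count, leaving out rows named after the mitochondrial genome sequence. Blue points mark named genes and vertical bars run from their lowest to their highest library. The muscle actin actc1b ranks first, fam177a1 stands at 14.6 CPM per kilobase and the germ-cell gene ddx4 at 0.211.

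Muscle led the messenger RNA. The actin gene actc1b, the most abundant row of a gene for a protein, stood at 19841, 17384 and 19299 CPM, or 10627 ± 728 CPM per kilobase. Replicate 2 was the lowest, and the highest library lay 1.14-fold above it. The parvalbumins pvalb1 and pvalb2, which bind calcium and speed relaxation of fast muscle, stood at 8517 ± 555 and 4662 ± 413 CPM per kilobase. The fast myosin light chain mylpfa stood at 3885 ± 88.5, the skeletal actin acta1b at 2882 ± 264 and the muscle creatine kinase ckma at 2762 ± 125 CPM per kilobase. Among the 25 named rows with the highest level per kilobase were also the liver apolipoprotein apoa1a, the trypsin-type genes prss1, prss59.1 and prss59.2 of the pancreas, the keratin krt4 of the skin, the ribosomal stalk protein rplp0 and the translation factor eef2b.

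Non-coding and mitochondrial rows made up a further part of the counts. The row of signal recognition particle RNA, Metazoa_SRP, held 4.60, 4.80 and 3.83% of the counts, and the row stands for many genomic copies. The small nuclear RNA rn7sk, which holds back transcription elongation, held 0.35, 0.339 and 0.301%. The 2 RNA rows were lowest in replicate 3. A row of 1683 bases named after the mitochondrial genome sequence stood at 11716 ± 100.3 CPM. The 13 protein genes of the mitochondrial genome held 2.21, 2.33 and 2.15%, led by the cytochrome oxidase subunits mt-co1 at 5310 ± 298, mt-co2 at 4757 ± 286 and mt-co3 at 3796 ± 209.6 CPM per kilobase. The complex I subunit mt-nd6 stood at 755 ± 58.3 CPM per kilobase, but it lies on the other strand of that genome and whether the counting used strand is not given in the sources used here.

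The make-up of the larva was read from 31 lists of organ and cell type genes, 1302 rows in all. Of these rows, 1257 had a count in every library and 8 had none. Together the lists took 25 ± 0.755% of the counts. The fast skeletal muscle list came first with 10.6, 10.27 and 11.6% of the counts in replicates 1, 2 and 3, and its lowest library lay above the highest library of the list that followed, liver. The liver list held 2.86, 3.01 and 2.90%, exocrine pancreas 2.14, 2.21 and 2.07%, and epidermis 1.84, 1.85 and 1.87%. These 4 lists did not overlap one another. Their order depends on the scale: as shares of the counts per kilobase, exocrine pancreas took 3.69 ± 0.0918% and liver 2.92 ± 0.0676%. Next came enterocytes at 1.02, 1.14 and 1.18% and bone, teeth and fin rays at 1.02, 0.964 and 1.21%, whose ranges overlapped. Cartilage at 0.80, 0.825 and 0.927% and lens at 0.788, 0.835 and 0.711% overlapped as well. Per kilobase, bone took 0.476% and cartilage 0.437%, while lens took 1.19% and red blood cells 1.11%, against 0.47% of the counts. Of the 31 lists in order of their mean share, 9 overlapped the next one down. The lists differ in size and in how well they cover an organ, so a share is that of the listed genes and not of the organ. Levels given below under an organ or cell type are likewise those of listed genes in the whole larva.

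**Figure D2:**
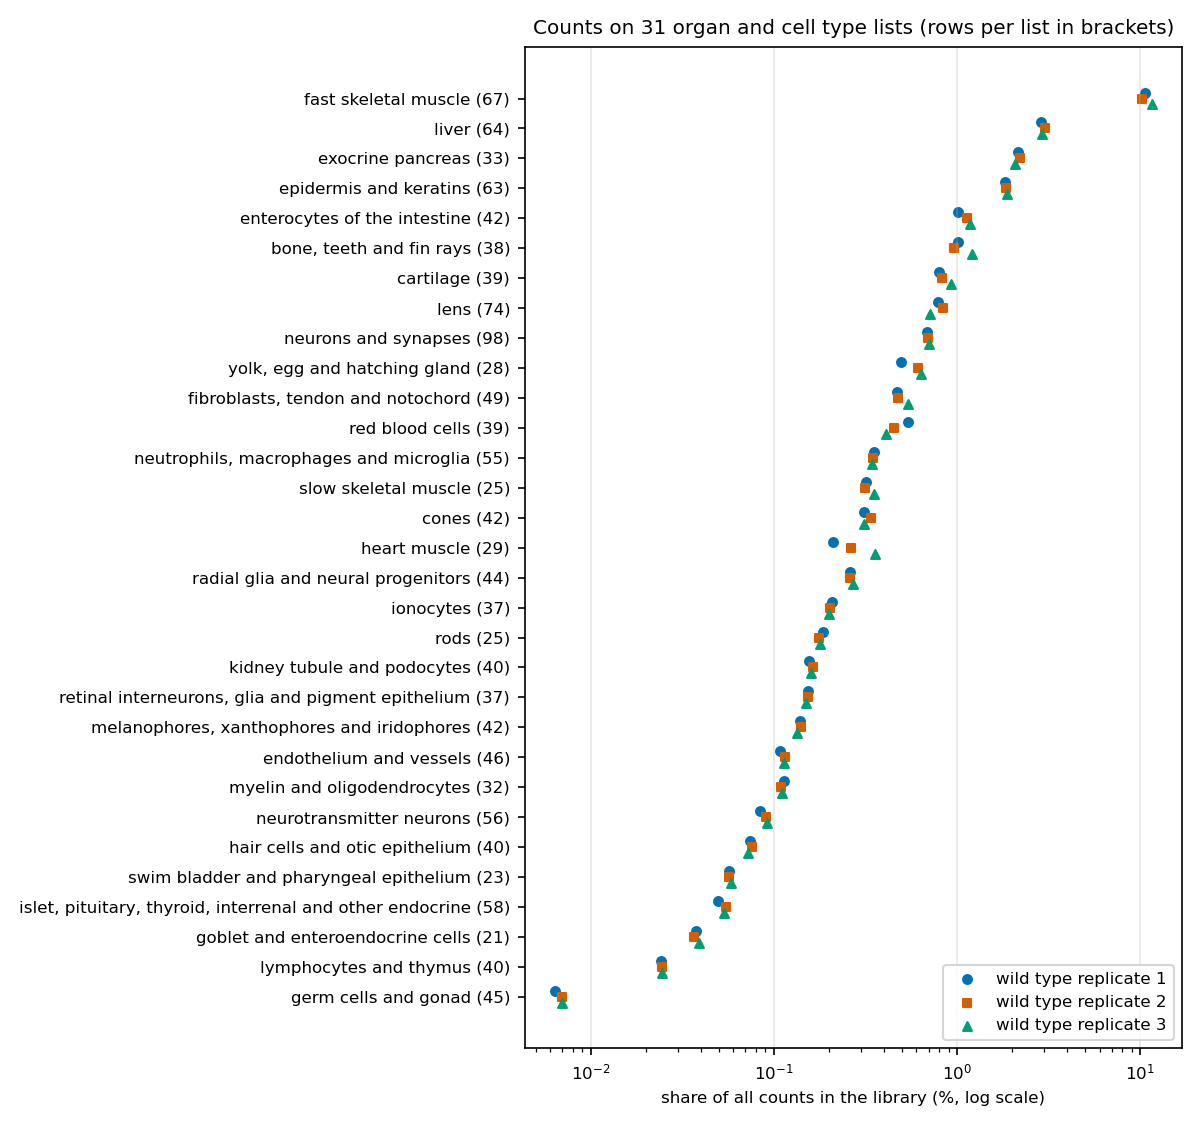
Share of all counts (%, log scale) that fell on each of 31 organ and cell type lists, by library, with the number of rows of each list in brackets. Fast skeletal muscle takes 10.27 to 11.6%, the lymphocyte list about 0.024% and the germ-cell list about 0.007%. The heart list spreads most widely, from 0.21 to 0.359%.

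The digestive organs were represented by a few very abundant genes each. In the exocrine pancreas, which makes digestive enzymes, all 33 rows had counts in each library. The trypsin-type genes prss1, prss59.2 and prss59.1 stood at 2801 ± 153, 2520 ± 132 and 1908 ± 76.7 CPM per kilobase, and the elastase ela2 at 1718 ± 167. Summed per kilobase, the 3 trypsin-type genes stood at 4.94, 4.94 and 4.79 times the chymotrypsins in the 3 libraries. That ratio rests on the deposited lengths and was 2.24 ± 0.0396 without length scaling. prss59.1 and prss59.2 are near-identical copies, and how reads were shared between them is uncertain. In the liver list the carriers of blood lipids led, with apoa1a at 3030 ± 199, apoa2 at 1766 ± 184 and the fatty acid binding protein fabp10a, a marker of hepatocytes, at 1062 ± 86.5 CPM per kilobase. The fibrinogen chains form a clotting protein together, with fga at 0.841 ± 0.00858 and fgb at 1.13 ± 0.0453 times the level of fgg per kilobase. Without length scaling fga turned to 1.28 ± 0.013 times fgg.

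In the intestine the chitinase chia.2 led at 588 ± 12.6 CPM per kilobase, followed by the fatty acid binding proteins fabp1b.1 at 498 ± 35.7, fabp2 at 456 ± 40.5 and fabp6 at 344 ± 25.2. The fatty acid binding proteins mark successive stretches of the absorbing gut, fabp6 its distal, bile acid recovering part. The apolipoprotein B gene apobb.1, a scaffold of lipoprotein particles made by yolk layer, liver and intestine, held 37.1% of the counts of the enterocyte list. It stood at 3281, 4374 and 4723 CPM, lowest in replicate 1. Without genes that stand in more than 1 organ list, the share of the enterocyte list was 0.625 ± 0.00306%. Among secretory cells, the goblet cell gene agr2 stood at 48.3 ± 7.16 CPM per kilobase. Some hormone genes lay below agr2 but above the median of 4.77 CPM per kilobase over the rows that passed the filter. The insulin gene ins stood at 27.8 ± 2.05, the glucagon gene gcgb at 13.3 ± 2.06 and somatostatin sst1.1 at 19.9 ± 3.95 CPM per kilobase.

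The skin list took 1.85 ± 0.0175% of the counts, the smallest SD for its mean among the 6 organ lists with the highest shares. The surface-layer keratin krt4 stood at 4570, 4826 and 4629 CPM and krt91 at 2337, 2234 and 2243 CPM. The basal keratin krt5 stood at 1813, 1753 and 2256 CPM, with replicate 3 the highest. All 22 rows named as keratins had counts in each library and together took 1.35, 1.38 and 1.39%. Ionocytes are the ion-transporting cells of the skin and gills. Their list was led by the ammonia transporter rhbg at 111 ± 14.9 and the sodium pump subunit atp1a1a.1 at 88.1 ± 3.47 CPM per kilobase. The regulator foxi3b stood at 4.72 ± 0.675. Summed copies of the sodium pump alpha1 and beta1 subunits stood in a ratio of 1.03 ± 0.0351 per kilobase and of 1.77 ± 0.062 without length scaling.

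Fast myosin RNA stood above slow myosin RNA. The fast myosin heavy chains myhz1.1, myhz1.2, myhz1.3 and myhz2 summed to 11.3, 12.3 and 13.3 times the slow myosins smyhc1, smyhc2 and smyhc3 per kilobase. The copies within each of these clusters are near-identical and their single levels are uncertain, and since the deposited lengths of the copies differ, the sums move with that split as well. Without length scaling the ratio was 15.02 ± 1.203. Slow muscle was led by the light chain myl10 at 231 ± 19.9 and smyhc1 at 167 ± 22.1 CPM per kilobase. Some defining heart genes lay far below the leading muscle genes in the whole body. The median over the rows that passed the filter was 12.7 CPM. The myosin light chain myl7 stood at 24.7, 26.2 and 19.6 CPM and the troponin tnnt2a at 12.5, 13.8 and 12.3 CPM. The heart symbols vmhc and amhc were not matched to a row of their own, so no level is given under those names. The share of the heart list rested on the giant sarcomere gene ttn.2, which held 67.8% of its counts and is also made in skeletal muscle. Without genes shared between organ lists the heart list took 0.0894 ± 0.00193%.

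The skeleton and connective tissue were led by type I collagen, the main fibre of bone and skin. Per kilobase, col1a2 stood at 507 ± 39.3, col1a1a at 439 ± 118 and col1a1b at 436 ± 54. The summed alpha1 copies stood at 1.53, 1.65 and 1.98 times the alpha2 chain. In cartilage col2a1a stood at 375 ± 57, the hypertrophic cartilage and bone collagen col10a1a at 243 ± 21.4 and matrilin matn1 at 221 ± 6.84 CPM per kilobase. The type IX collagen chains, which coat cartilage fibrils, ran from col9a1b at 58.6 CPM per kilobase through col9a1a at 109.95 and col9a2 at 124 to col9a3 at 140.3. The ratio of col9a3 to col9a2 was 1.13 ± 0.0145 per kilobase and turned to 0.91 ± 0.0117 without length scaling. The bone regulator sp7 stood at 10.7, 10.7 and 11.2 CPM. The row of the bone matrix gene bglap had no count in any library. All 52 rows named as collagens had counts in each library, and together they took 1.76, 1.76 and 2.15% of the counts, with replicate 3 the highest.

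Lens and photoreceptor genes were well represented. The 74 lens rows took 0.778 ± 0.0624% of the counts, led by the crystallins crybb1 at 587 ± 48.1 and crygn2 at 391 ± 25.7 CPM per kilobase. Many gamma crystallins of the crygm2d group are near-identical copies, so their single levels are uncertain. The alpha crystallin cryaa stood at 12 ± 0.725 CPM per kilobase and the lens channel mipa at 21.8 ± 1.04, while crygs3 had no count. The 42 cone rows took 0.311, 0.341 and 0.312% and the 25 rod rows 0.187, 0.176 and 0.179%, without overlap. A single gene, rhodopsin rho, held 46.7% of the counts of the rod list and stood at 902, 790.1 and 838 CPM. Per kilobase, rho stood at 0.632 ± 0.0702 times the sum of the cone opsins.

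The cone opsins set the colours that each cone detects. The ultraviolet opsin opn1sw1 made 44.5, 47.5 and 46.1% of the cone opsin level per kilobase, the red opsin opn1lw2 24.3, 20.9 and 21.9%, the green opsin opn1mw1 16.6, 16.9 and 17.2% and the blue opsin opn1sw2 12.9, 12.9 and 13.3%. The order was the same in the 3 libraries and no neighbours overlapped. The tandem copies opn1mw2 at 1.41 ± 0.117% and opn1lw1 at 0.229 ± 0.0619% followed, and opn1mw3 at 0.0146 ± 0.00533% and opn1mw4, with a single count in replicate 3, came last. The green copies and the red copies are each similar in sequence, so reads may have been shared between them.

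Neural genes were many and moderate. All 98 rows of the neuron and synapse list had counts in each library, and they took 0.686, 0.698 and 0.707% of the counts. The brain creatine kinase ckbb led at 457 ± 21.5 CPM per kilobase. The neuronal RNA-binding gene elavl3 stood at 108, 120.0 and 128 CPM and the synaptic fusion gene snap25a at 138, 141 and 139 CPM. In radial glia, the stem-like cells of the fish brain, the lipid carrier fabp7a stood at 289.6 ± 22.6 and the filament gene gfap at 54.0 ± 5.11 CPM per kilobase. The myelin genes mbpa and mbpb stood at 28.8 ± 3.56 and 31 ± 2.12 CPM per kilobase. The inhibitory transmitter enzyme gad1b stood at 16.6 ± 0.589 CPM per kilobase. In the ear, the otolith gene stm stood at 47.4 ± 2.05 and the hair cell gene otofb at 2.26 ± 0.176. Pigment cell genes were led by tyrp1b of melanophores at 81.4 ± 7.75, gch2 of xanthophores at 50.7 ± 3.63 and pnp4b at 46.4 ± 5.14 CPM per kilobase. The marker named for the pigment cells was pnp4a, and whether pnp4b is made in iridophores was not examined.

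The red cell list took 0.47% of the counts and 1.11% per kilobase, and the immune cell lists took less on both scales. The larval globin genes led the red cell list, with the alpha globin hbae3 at 1529, 1264 and 1152 CPM and the beta globin hbbe1.3 at 829, 700.4 and 586 CPM. Replicate 1 was the highest and replicate 3 the lowest for both. Summed larval beta globins stood at 1.56, 1.46 and 1.46 times the alpha globins per kilobase, and reads may be shared between copies within each group. The rows of the adult globins hbaa1, hbaa2 and hbba1 had no count, and hbba2 had 1 count, in replicate 1. The neutrophil and macrophage list took 0.347 ± 0.00471%, but 52.8% of its counts came from cpa5, a peptidase gene also in the pancreas list, and 30.9% from apoeb. Without genes shared between organ lists it took 0.0525 ± 0.00244%. The neutrophil gene mpx stood at 26.8, 29.3 and 25.7 CPM and the macrophage gene mpeg1.1 at 11.4, 11.9 and 11.9 CPM. Lymphocyte and thymus rows took 0.0243 ± 0.000221%, with the recombinase rag1 at 16.2, 13.5 and 13.3 CPM and no count for ighd.

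Germ-cell, egg and hatching gland genes were low. The germ-cell list of 45 rows took 0.00677 ± 0.000359% of the counts, and the germ-cell helicase ddx4 had 22, 11 and 7 counts. The egg coat gene zp2.1 had counts of 0, 2 and 0, the yolk protein gene vtg1 6, 4 and 7, and the hatching enzyme gene he1.1 4, 3 and 8. The rows of he1.2 and ctslb, another hatching gland gene, had no count. The yolk, egg and hatching list as a whole still took 0.581 ± 0.0773%, of which apobb.1 made 71.1%. Olfactory and trace amine receptors, which are each made by few sensory neurons, had 282 rows, of which 34 had a count in every library and 104 had none in any.

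Pathways shared by all cells added to this picture. The 87 cytosolic ribosomal protein rows took 7.17, 6.91 and 6.16% of the counts, second to fast muscle among all 44 lists and lowest in replicate 3. Per kilobase the order of the means turned, with 12.1 ± 0.703% for the ribosomal proteins and 11.2 ± 0.479% for fast muscle. The ranges of 1 SD overlap, so the order per kilobase is not settled. The ribosomal proteins were led by rplp0 at 2524 ± 227 CPM per kilobase, with a list median of 589. The row rpl26 stood at 0.62 ± 0.194 CPM per kilobase, and whether reads of that gene were counted elsewhere was not examined. The 102 nuclear-encoded respiratory chain rows took 1.26, 1.18 and 1.16%, with the ATP synthase alpha subunit gene atp5fa1 at 0.829 ± 0.0196 times the beta subunit gene atp5f1b per kilobase. Chaperones took 1.38 ± 0.0122%, led by hspa8 at 605 ± 25.5 and hsp90ab1 at 490 ± 15.3 CPM per kilobase. Glycolysis took 0.881 ± 0.0261% and cholesterol synthesis 0.346, 0.39 and 0.336%, the latter highest in replicate 2 and led by hmgcs1 at 823, 967 and 813 CPM. The replication clamp pcna stood at 407, 377 and 409.5 CPM. The Golgi and secretory list, of interest because the human protein FAM177A1 is found at the Golgi, took 0.576, 0.574 and 0.579%.

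Subunits of some complexes lay within a few-fold of each other. The 6 subunits of the MCM helicase, which opens DNA for replication, ran from 44.5 CPM per kilobase for mcm2 to 81.2 for mcm4, a 1.83-fold range. The 8 subunits of the chaperonin CCT ran over 4.11-fold, from cct8 at 62.9 to cct2 at 259. The 8 subunits of the Golgi tethering complex COG ran over 4.2-fold, from cog1 at 4.17 to cog7 at 17.5. These ranges rest on the deposited gene lengths. The summed level varied between libraries by 0.20% (CV) for COG, 2.00% for the COPI coat and 3.65% for CCT. It varied by 4.58% for MCM and 5.71% for the proteasome alpha ring. Counting error is included, and so small a value from 3 libraries does not show that COG is held more tightly.

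The Hox genes, which mark position from head to tail, all lay low but were nearly all present. Of 48 rows, 47 had a count in every library, and the list took 0.0267 ± 0.0018% of the counts. The highest were hoxc6a at 8.44 ± 1.27 and hoxb5a at 8.40 ± 0.457 CPM per kilobase. Summed per paralogue group, the 4 rows of group 5 stood at 21.5 ± 1.21 and the 5 rows of group 9 at 20.4 ± 3.01, while the 4 rows of group 1 stood at 3.88 ± 0.532 and the single row of group 7 at 2.52 ± 0.471. Per row, group 8 was the highest with a mean of 5.68, followed by group 5 at 5.39, group 6 at 4.24 and group 9 at 4.09 CPM per kilobase. The 15 rows of the B clusters summed to 61.2 ± 2.91 and the 15 rows of the C clusters to 50.6 ± 6.43 CPM per kilobase. In replicate 2 the median Hox row lay 0.13 below its own mean on the log2 scale, against a median of 0.00 over all genes.

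Most named pairs of gene copies were used unevenly, and most kept the same higher copy in each library. The table held 2841 pairs of rows whose names differ in a final a or b, and 2789 reached 1 CPM together. The higher copy held a median of 69.5% of the level per kilobase. In 331 pairs, or 11.9%, a single copy held at least 90%, and in 39 pairs at least 99%. In 756 pairs, or 27.1%, the split lay between 40 and 60%. The same copy was the higher in all 3 libraries in 2566 pairs, or 92.0%. The median SD of the share was 2.07 percentage points, or 1.85 among the 2363 pairs at 10 CPM or more. The copy named a was the higher in 1488 pairs, 53.4%. A shared name does not prove a shared origin in the genome duplication, and the lengths of the copies enter each share. Without length scaling the other copy was the higher in 386 of the 2789 pairs.

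Among the most abundant pairs, the muscle actin share of actc1a was 0.63, 0.685 and 0.683%, with actc1b holding the rest. The copy actc1a, which led the heart list, stood at 71.1 ± 3.61 CPM per kilobase. The creatine kinases shared more evenly, with ckma at 58.8, 58.6 and 58.9%. The light chain mylpfa held 87.8 ± 0.422% and the troponin tnnt3a 18.5 ± 0.139% of their pairs. The liver carriers apoa1a and fabp10a held 76.8 ± 0.921% and 99.9 ± 0.025%. By CPM the order of the first pair was the reverse, with apoa1a at 2951 and apoa1b at 3848, whose deposited lengths are 974 and 4200 bases. The ribosomal protein gene rpl5a held 45.4 ± 0.805% and the cyclophilin ppiaa 56.7 ± 0.747%. The 10 pairs closest to an even split included the vitamin D receptors vdra and vdrb, the cohesin loaders nipbla and nipblb, the Polycomb subunits suz12a and suz12b and the sheddases adam17a and adam17b, each at 49.9 to 50.1% for the first-named copy. These splits are per kilobase, and by CPM vdra stood at 8.36 and vdrb at 21.6.

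Of 73 named pairs, 20 drew at least 90% from 1 copy and 18 lay between 40 and 60%. Among the 20 were opn1mw3 and opn1mw4, at 0.174 and 0.0156 CPM, and cryaba and cryabb, at 0.052 and 1.14 CPM. At such low levels these shares are uncertain. In the glycolytic pathway tpi1a held 3.02 ± 0.601%, aldoca 4.01 ± 0.719% and ldhba 97.6 ± 0.527%, while aldoaa held 49.0, 53.9 and 51.5% and pkma 56.8 ± 0.756%. In the eye the arrestin arr3a held 93.1 ± 0.334%, opn1lw1 1.03 ± 0.344% and the rod arrestin saga 17.7 ± 1.01%. In the brain fabp7a held 97.7 ± 0.148%, syt1a 97.5 ± 1.3% and gad1a 12.7 ± 0.711%, while snap25a held 55.6 ± 1.39% and the glutamate transporter slc17a6a 49.1 ± 1.99%. In the skeleton col10a1a held 98.4 ± 0.233%, sox9a 81.0 ± 1.23% and col2a1a 79.1 ± 1.19%. The collagen copy col1a1a held 46.9, 48.6 and 53.7%, so the higher copy changed in replicate 3. The sterol enzyme gene sqlea held 99.7 ± 0.0115% and the lipoprotein apoea 49.4 ± 1.27%.

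**Figure D3:**
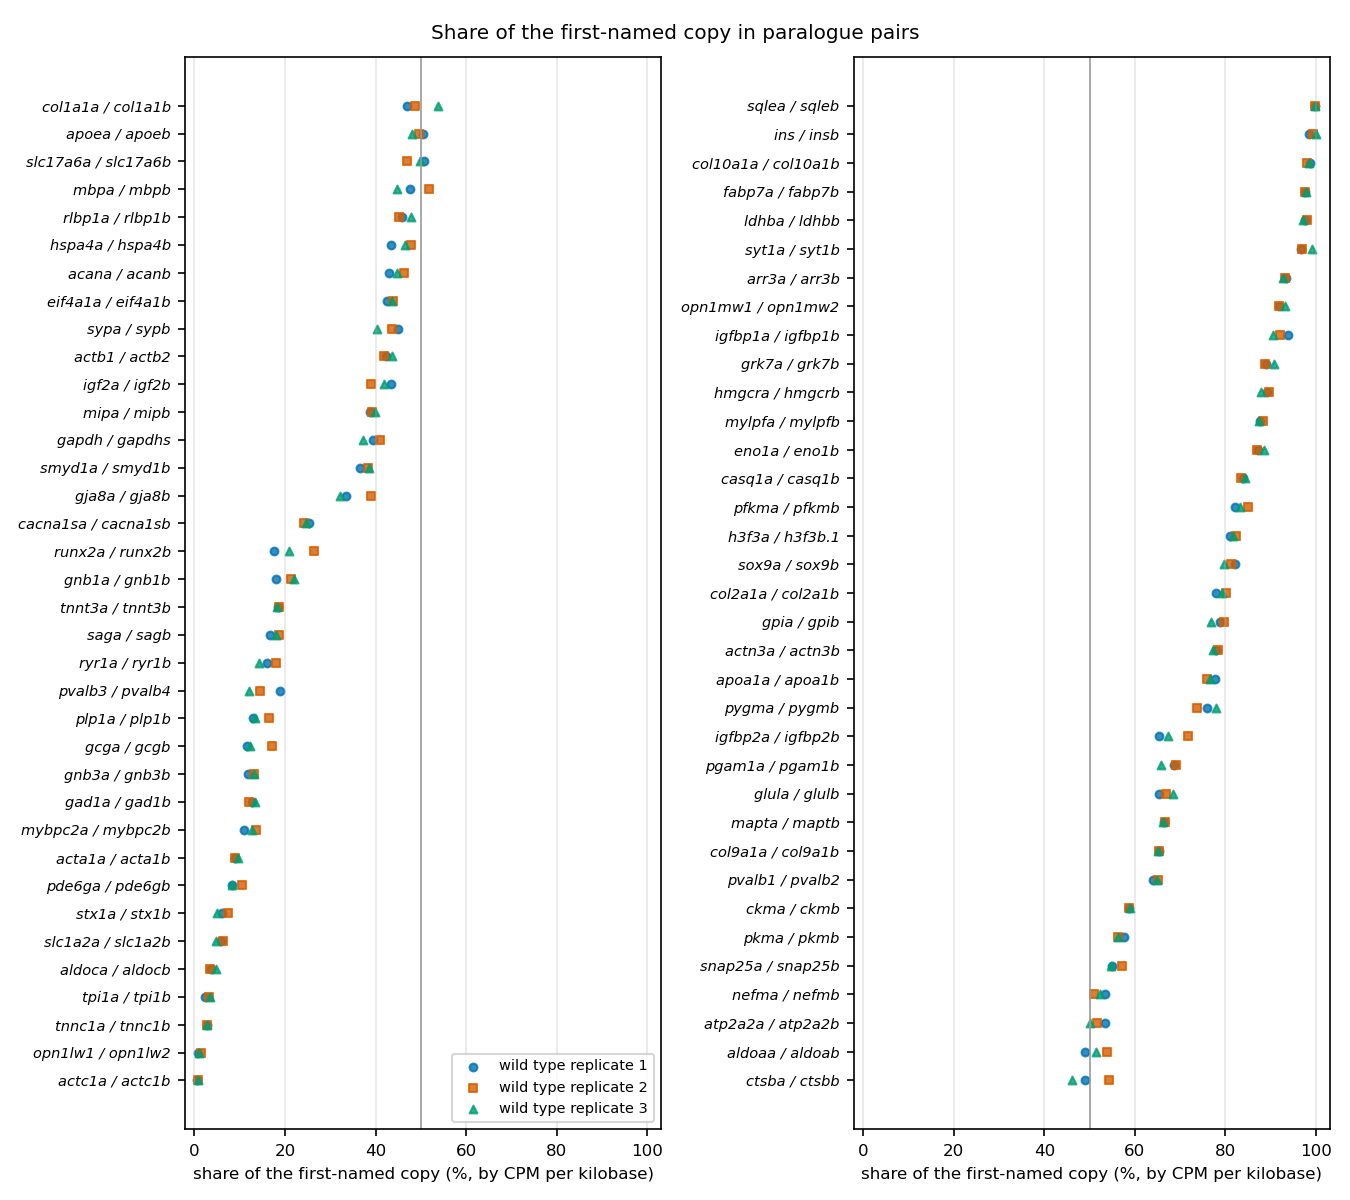
Share of the first-named copy (%, by CPM per kilobase) in the 71 named paralogue pairs at 5 CPM or more together, with 1 point per library and a line at 50%. The pairs run from actc1a, under 1% of its pair, to sqlea at 99.7%, and the points of a pair mostly lie within a few percentage points.

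The spread among the 3 libraries was then set against counting error. A chi-square test of each gene's 3 counts against Poisson counting at the scaled library sizes, with Benjamini-Hochberg adjustment over 20737 genes, called 6098 genes more variable than counting error at an adjusted p under 0.05, which is 29.4% of those tested. Of these, 497 genes, 2.4% of those tested, also had their highest library at least 2-fold above the lowest. The share called followed abundance, since the test sees smaller differences at higher counts: 16.8% of genes between 1 and 3 CPM were called, 42.0% between 30 and 100 CPM and 100% of the 105 genes at 1000 CPM or more. Of the abundant lists, 61 of 67 fast muscle genes, 84 of 86 ribosomal protein genes and 46 of 64 liver genes were called, 2, 0 and 0 of them with a 2-fold range. Lists of lower genes varied. In the endothelium 9 of 46 were called and in transmitter neurons 6 of 51, with 0 in each over a 2-fold range. In the kidney list 17 of 37 were called and in the goblet and enteroendocrine list 8 of 18, with 1 in each over a 2-fold range.

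Leaving out replicate 1 left 3084 called genes, leaving out replicate 3 left 3177, and leaving out replicate 2 left 4356. The pair of replicates 1 and 3 thus differed in 20.7% of its tested genes, replicates 1 and 2 in 15.15% and replicates 2 and 3 in 14.8%. The share called also rises with the depth of a pair. The median absolute log2 differences lay closer together, at 0.146, 0.136 and 0.140 for the same pairs. Among the 497 genes with a 2-fold range, replicate 1 was the highest in 157, replicate 2 in 175 and replicate 3 in 165.

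The widest range among genes at 5 CPM or more was that of zgc:158463, at 34.9, 117 and 340.4 CPM, a 9.75-fold difference between replicates 1 and 3. The rows si:ch73-106l15.4 at 13.8, 23.8 and 3.004 CPM and the annexin anxa3b at 20.04, 10.6 and 3.66 CPM followed with 7.93-fold and 5.47-fold ranges. Replicate 3 was the highest for the first of these and the lowest for the other two. The executioner caspase casp6a stood at 13.3, 5.67 and 3.90 CPM and the heat-inducible chaperone hsp70l at 6.35, 8.67 and 20.2 CPM. The larval beta globin hbbe1.1 stood at 512, 161 and 243 CPM, a 3.18-fold range, while its neighbours hbbe1.3 and hbbe1.2 had ranges of 1.42-fold and 1.31-fold. The smooth muscle myosin myh11b stood at 4.59, 9.54 and 3.61 CPM. Of the 15 genes with the widest range, 9 carry only clone or project names. Over all 20737 genes tested, 2685 carry project names such as those with si or zgc, as do 145 of the 497 with a 2-fold range. Those counts leave out clone names such as AL935186.9, which are among the 9. Calls with a 2-fold range were commoner at low levels, with 11.6% of tested genes between 1 and 3 CPM and 0.368% between 10 and 30 CPM. The median over all 4323 rows with project names, filtered or not, was 1.71 CPM. The counts by name were not matched for level.

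At the other end, the vault protein mvp stood at 159.9 CPM in each library. The clock-controlled repressor bhlhe40 stood at 162, 162 and 161 CPM. Also among the 10 genes with the smallest spread at 100 CPM or more was the translation initiation subunit eif3c, at 517, 519.7 and 519.8 CPM. The polyamine enzyme odc1, at 261, 263 and 262 CPM, and the cone arrestin arr3a, at 188, 189 and 188 CPM, were others. These 10 were picked by their spread from 1400 rows. Counting error alone can bring 3 libraries this close, so the values do not show that these genes are held steadier than others.

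**Figure D4:**
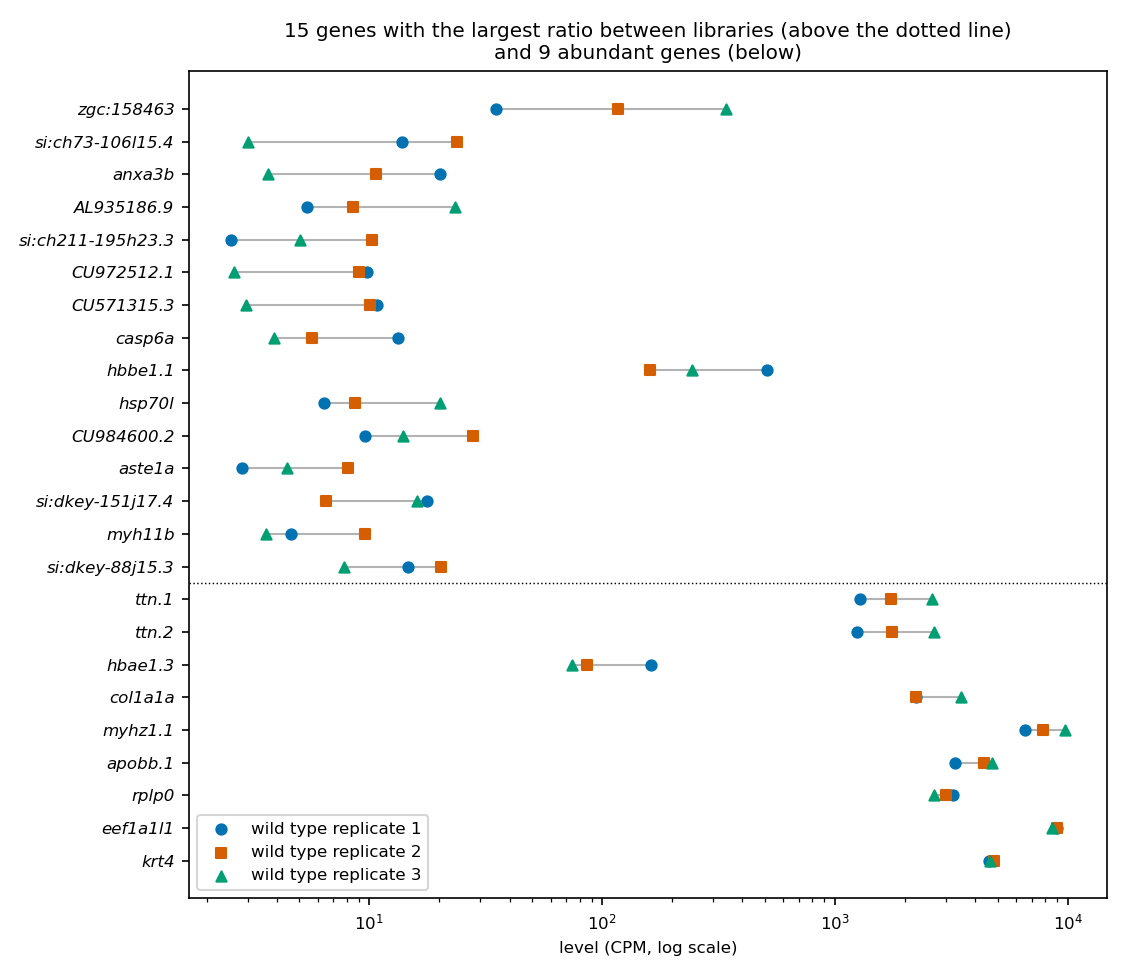
Level (CPM, log scale) in each wild-type library of the 15 genes with the widest range at 5 CPM or more, above the dotted line, and of 9 abundant genes, below it. The row zgc:158463 runs from 34.9 to 340.4 CPM, the titin genes ttn.1 and ttn.2 lie 2.04-fold and 2.12-fold higher in replicate 3 than in replicate 1, and krt4 has a range of 1.06-fold.

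A part of the spread ran with gene length. Among genes at 5 CPM or more, the 902 shorter than 1000 bases lay 0.08 above their own mean in replicate 1 and 0.09 below it in replicate 3 (medians, log2). The 779 genes over 8000 bases lay 0.10 below it in replicate 1 and 0.09 above it in replicate 3. In replicate 2 the medians of the 6 length classes lay between 0.00 and 0.01. Across the 14999 genes, the log2 difference of replicate 3 over replicate 1 correlated with log2 length with Pearson's r of 0.341, as a description across genes of the same 2 libraries. The part of length in the differences below was not tested.

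Some long genes, chosen after their values were seen, were highest in replicate 3. The titin genes ttn.1 and ttn.2, with deposited lengths of 88557 and 98586 bases, stood at 1276, 1741 and 2601 CPM and at 1248, 1751 and 2650 CPM. The myosin myhz1.1 stood at 6554, 7792 and 9756 CPM, the collagen col1a1a at 2232, 2236 and 3465 CPM, and col2a1a at 1926, 2158 and 2592 CPM. The medians of the fast muscle and bone lists lay 0.02 and 0.04 lower in replicate 3 than in replicate 1 (log2). The median ribosomal protein gene lay 0.26 lower, against a mean of 0.08 lower for genes of the same length classes. For the respiratory chain genes the values were 0.20 and 0.10 lower. For the mitochondrial genome they were 0.05 and 0.12 lower. For the red cell list the median was 0.29 lower, against 0.04 lower for genes of the same length classes, and for the rods 0.13 against 0.02 lower. The neuron list lay 0.06 higher in replicate 3, against 0.01 higher for its length classes. The difference between these replicates also ran with level. Genes between 300 and 1000 CPM lay 0.12 lower in replicate 3 (median, log2), and genes between 30 and 100 CPM 0.002 lower. The median level of the ribosomal protein genes was 706 CPM. The length classes were not matched for level, and the part of level was not tested.

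**Figure D5:**
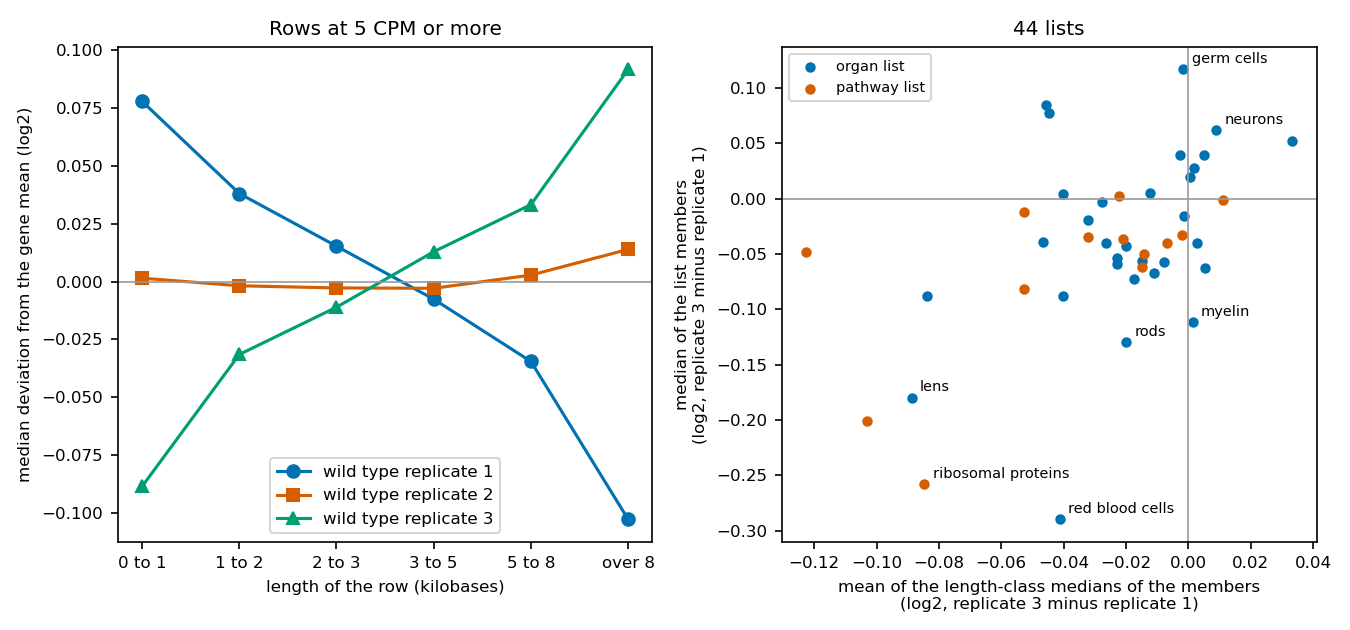
Left, median deviation of genes from their own mean (log2) by length class and library, for genes at 5 CPM or more without multi-copy RNA. Right, the median log2 difference of replicate 3 minus replicate 1 over the members of each of 44 lists against the mean of the medians of their length classes. Short genes are higher in replicate 1, long genes in replicate 3, and the red cell list lies 0.29 below zero.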

How the data were processed

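Counts per gene of 3 wild-type libraries were used, from a merged table of whole-number counts that the authors deposited with a gene length column. Cutadapt, STAR, featureCounts and DESeq2 and the build GRCz11 are named in the submitters' processing notes, without versions; whether counting used strand is not given in the sources used here. Columns were tied to samples by genotype and number, and 0 sample columns had no label. Members and gene lists were chosen with earlier results of these data known. CPM used TMM factors of edgeR 4.0.16; shares used raw totals. The filter on low counts was edgeR's filterByExpr with 10 counts as its minimum and kept 20737 rows. Lists held 44 sets of symbols or name patterns, and 41 symbols were matched by a RefSeq synonym. A further 105 entries added no row. Their symbol was not in the table, and a synonym led to no row, to several rows or to a row already in the list. The dispersion step and the chi-square test (scipy 1.17.1) were checked on simulated counts. Floors cover counting error only, and depths of 18297048 to 24717581 counts put 3 counts at 0.123 to 0.164 CPM in a library. Named genes were the 25 highest rows by CPM and by CPM per kilobase, up to 8 leading members of each list and its defining members at 0, the named pairs, the 10 pairs with the highest level and the most even split, the 15 called genes with the widest range at 5 CPM or more and the 10 steadiest at 100 CPM or more; other genes named in the text, such as defining markers outside the leading members, members of complexes and ratios, and the long genes, were chosen after their values were seen.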

Additional observations from a re-analysis of the deposited data

How the results depend on the processing

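The count of genes more variable than counting error with a 2-fold range rested on settings. From 497 of 20737 genes it went to 969 of 26543 with no filter beyond 1 count. It went to 79 of 17034 with at least 50 counts in each library, to 1440 at 1.5-fold and to 71 at 3-fold. Without 1 replicate it ran from 204 to 268. The 6098 genes called without a fold limit became 3906 at an adjusted p under 0.01 and 3084 to 4356 without 1 replicate, where fewer libraries were tested. The 491 rows holding 50% of the counts became 244 by counts per kilobase. The organ lists together took 26.3% without multi-copy RNA rows, 26.5% per kilobase and 23.7% with genes that stand in 1 organ list, and 24.5 to 25.2% without 1 replicate. Of the 44 list shares, 41 moved by more than 1 SD per kilobase and 28 without multi-copy RNA rows. Without those rows only the total shrank and all shares rose by nearly the same factor. The count of 28 therefore follows from the SD of each list alone. With single-list genes, 23 of the 31 organ lists moved, and the 13 pathway lists lost no gene to that filter. The 331 of 2789 pairs with at least 90% from 1 copy became 399 of 2789 with no length scaling and 263 of 2363 at 10 CPM or more. Other scaling of the libraries gave 6089 to 6145 called genes and 495 to 502 with a 2-fold range. No paired analysis was possible because a single group was used and no groups were compared. The promoter motif and the protein identity filter on pairs were not run, since sequences were not used here. Genes near 0.0468 CPM could not be told from 0 at this depth.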

Other observations

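Some genes of the antiviral response, chosen after their values were seen, were highest in replicate 2. The RNA sensor gene dhx58 stood at 3.85, 8.50 and 3.38 CPM, the signal transducer stat1b at 9.96, 17.8 and 8.50 CPM, rnf213b at 4.63, 9.70 and 5.68 CPM and the regulator irf7 at 5.25, 9.10 and 6.15 CPM. The interferon-induced gene mxa did not share that pattern, at 2.62, 2.62 and 2.53 CPM. None of the 44 lists covered the antiviral response, and how many of its genes share the pattern was not counted. Among all 497 genes with a 2-fold range, replicate 2 was the highest in 175. The gene irf7 did not reach a 2-fold range and is not among them. The flow-responsive factor klf2a stood at 203, 131 and 91.6 CPM, a 2.22-fold range with replicate 1 the highest.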
